A study of Mus musculus with 90 samples.

Results

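Flavin monooxygenases are the subject of the values given here: Fmo1, Fmo2, Fmo4 and Fmo5, 4 of the 27654 genes counted in bulk RNA-seq of mouse liver. Flavin-containing monooxygenases are membrane enzymes of the endoplasmic reticulum that bind FAD, take electrons from NADPH and add an oxygen atom to soft nucleophiles, mostly nitrogen and sulfur atoms of drugs, dietary amines and cell metabolites. In contrast to cytochromes P450, they take their electrons from NADPH without a partner reductase. The genes were chosen by symbol, with the levels (as CPM, read counts scaled to a common library total that edgeR's TMM factors had adjusted) of these libraries by diet, genotype, time point and corticosterone known. The adjusted p-values and calls below therefore describe these libraries and are not independent evidence about the genes.

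The study asked how the liver response to caloric restriction depends on the glucocorticoid receptor (GR) of hepatocytes, and 90 liver libraries in 28 groups were used. All mice were male C57BL/6J, 12 weeks old at the start, and the diet protocol ran for 8 weeks. Time-series mice were GRfl/fl (called WT) or GRfl/fl x Alb-Cre (GR LKO), so both carried the floxed GR allele. In GR LKO the albumin promoter drives Cre in hepatocytes, and other liver cells keep the gene. Both genotypes were on caloric restriction, stepped up weekly to 40% and fed at Zeitgeber time (ZT) 12, the start of darkness, or on a control diet. By the study's methods the controls ate freely until the last week, when feeding was limited to the night, the regimen their label names. Livers were collected at ZT0, ZT4, ZT8, ZT12, ZT16 and ZT20 from 3 mice of each genotype, diet and time, with 4 WT and 4 GR LKO on the control diet at ZT8 and ZT12 and 4 WT at ZT16 and ZT20. A separate WT diet experiment at ZT12 held 3 libraries on caloric restriction and 3 on control feeding. The titles of these controls read ad libitum and their treatment label reads night-restricted feeding, and the control regimen in the methods held both in turn. A corticosterone experiment in WT mice at ZT12 held 3 libraries after 7 days of 5 mg/kg corticosterone injections and 3 controls, all under night-restricted feeding. The study's methods describe vehicle injections for the controls, whose label names only the feeding.

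Total estimated counts ran from 14235500 to 20788600 in the 36 caloric restriction libraries of the time series, from 10057500 to 17089000 in the 42 control libraries, from 36442200 to 39492100 in the 6 libraries of the WT diet experiment and from 13739600 to 16077900 in the 6 of the corticosterone experiment. The TMM factors behind the CPM were computed within each of these 4 tables, so levels set across tables come from separate normalizations. In the time series each diet had its own table, so diet and library set cannot be told apart there and diet was tested in the WT diet experiment. The labels number replicates without naming the animals, and p-values measure the spread between these libraries. The share of all genes whose groups did not overlap was not counted. Statements below that groups did not overlap are therefore a description, and groups this small can separate by chance.

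Nr3c1, the gene that encodes GR, was read first as a check of the genotype labels. On caloric restriction its lowest, median and highest levels were 70.7, 93.9 and 113 CPM in 18 WT libraries and 21.6, 24.9 and 31.8 CPM in 18 GR LKO libraries. On the control diet they were 72.9, 87.2 and 118 CPM in 22 WT libraries and 16.3, 21.6 and 29.0 CPM in 20 GR LKO libraries. Every GR LKO library lay below every WT library, with transcript remaining in each. The log2 fold change of GR LKO over WT ran from −2.06 ± 0.09 (SE) on the control diet at ZT8 to −1.70 ± 0.07 on caloric restriction at ZT12, and edgeR called it in all 12 comparisons. Of 7 hepatocyte markers 6 were in the tables, and their summed level had a median of 99649 CPM over the 90 libraries. Alb had a mean of 81478 CPM and the next, Ttr, 5206 CPM, so sums of this list are mostly Alb. Some libraries stood apart in markers of other tissues: 6 exocrine pancreas genes summed to 559 CPM in WT replicate 3 on caloric restriction at ZT12 and to 268 CPM in WT replicate 2 on the control diet at ZT16, against a median of 0.128 CPM. The adipocyte list reached 85.1 CPM in GR LKO replicate 3 on the control diet at ZT12 and 63.9 CPM in GR LKO replicate 1 at ZT0, against a median of 2.90 CPM. In both libraries the sum was that of Cidec (50.1 and 18.5 CPM) and Cfd (35.0 and 45.5 CPM), while the other genes of the list, Adipoq, Retn, Lep and Plin1, were at 0. Over the 90 libraries Adipoq was at 0 in 62, Retn in 63, Lep in 89 and Plin1 in all, and the highest level of Adipoq was 1.37 CPM. Erythrocyte markers reached 3846 CPM in GR LKO replicate 2 on caloric restriction at ZT0, against a median of 528 CPM. Markers of other liver cells were high at ZT20 in GR LKO replicate 1 of each diet. The library on caloric restriction was at 523 CPM for stellate and fibroblast, 26.5 CPM for lymphocyte, 363 CPM for Kupffer and myeloid and 106 CPM for cholangiocyte markers, and that on the control diet at 460.2 CPM for stellate and 153 CPM for cholangiocyte markers. The medians of these 4 lists over the 90 libraries were 229, 6.73, 158 and 43.8 CPM. Kupffer markers were highest, at 373 CPM, in WT replicate 2 on caloric restriction at ZT8, and lymphocyte markers also reached 23.3 CPM in WT replicate 3 on the control diet at ZT0.

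In GRCm38, Fmo1 (ENSMUSG00000040181) lies at chr1:162829561-162866610, Fmo2 (ENSMUSG00000040170) at chr1:162874317-162898726 and Fmo4 (ENSMUSG00000026692) at chr1:162793188-162813972, each on the minus strand, while Fmo5 (ENSMUSG00000028088) lies on the plus strand at chr3:97628804-97655282. No other annotated gene overlapped the 4 genes. Fmo1 transcripts share stretches of at least 95% identity over at least 75 bases with 13 genes outside the family, the longest of 524 bases, so Fmo1 counts hold some uncertainty. No such stretch was found for Fmo2, Fmo4 or Fmo5. Per kilobase of exon, Fmo5 had the highest level in every series of libraries, at 310 ± 216 CPM per kb (SD, n = 18) in WT time-series livers on caloric restriction. Fmo1 followed at 57.7 ± 12.9 CPM per kb, Fmo2 at 16.1 ± 15.2 CPM per kb and Fmo4 at 5.29 ± 1.69 CPM per kb. In WT livers on the control diet (n = 22) the same scale gave 189 ± 80.1 CPM per kb for Fmo5, 28.8 ± 5.39 for Fmo1, 1.98 ± 0.602 for Fmo4 and 1.87 ± 1.35 for Fmo2. These SDs pool 6 time points. Within a time point, Fmo2 lay above Fmo4 by more than both SDs at 3 of 6 times in restricted WT livers, most at ZT12 with 46.2 ± 8.41 against 4.46 ± 0.447 CPM per kb (n = 3), and at 1 of 6 times in control WT livers (ZT16, 4.14 ± 1.28 against 1.44 ± 0.0709, n = 4). It lay below Fmo4 by as much at 3 of 6 times in control WT livers (ZT0, ZT4 and ZT8), and at the remaining times the levels of the 2 genes did not differ beyond their spread. After caloric restriction in the WT diet experiment Fmo2 was again the higher, at 38.3 ± 4.10 against 4.41 ± 0.572 CPM per kb (n = 3). Fmo6 had at most 8 estimated counts in a library and Fmo9 had 0 in all 90 libraries, and neither was tested.

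Caloric restriction in WT livers at ZT12 came with higher levels of each of the 4 genes. Fmo5, which inserts oxygen beside ketones as a Baeyer-Villiger enzyme, was at 832, 839.8 and 1036 CPM in the control libraries and at 2608, 2064 and 1716 CPM on caloric restriction. Fmo1, an enzyme of broad substrate range that also makes taurine from hypotaurine, was at 169.6, 222 and 173 CPM in controls and at 471, 457 and 368 CPM on caloric restriction. Every restricted library was above every control library for both genes. Fmo2, known best as the lung form of the family, was at 13.7, 37.8 and 16.9 CPM in controls and at 189.9, 219 and 235 CPM on caloric restriction. Fmo4, whose substrates are little known, was at 9.81, 13.1 and 10.6 CPM in controls and at 14.0, 16.9 and 18.1 CPM on caloric restriction. These groups did not overlap either, although control replicate 2 of Fmo2 stood above its partners and the Fmo4 groups came close.

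By the quasi-likelihood F test of edgeR (Benjamini-Hochberg over all genes), Fmo2 rose by 3.24 ± 0.37 (SE) on the log2 scale (adjusted p = 0.000764), a 9.42-fold difference. Fmo5 rose by 1.24 ± 0.17 (adjusted p = 0.00132) and Fmo1 by 1.20 ± 0.14 (adjusted p = 0.000797). The log2 fold change of Fmo4 was 0.55 ± 0.14 (adjusted p = 0.0169). In the WT time-series libraries at ZT12, where diet and table go together, the values were further from 0, at 4.62 for Fmo2 (means of 259 against 10.4 CPM) and 1.07 for Fmo4. The 4 of 4 genes called stand beside a background in which 47.1% of the genes tested were called, and the median log2 fold change was 1.22 over the 4 genes and 0.00 over all genes. The Fmo4 call was lost without control replicate 1 (0.46, adjusted p = 0.0600), control replicate 3 (0.51, adjusted p = 0.0542), restricted replicate 2 (0.53, adjusted p = 0.0573) or restricted replicate 3 (0.47, adjusted p = 0.0541). Bulk tissue was measured, so a change in the number of cells of a type and a change in RNA per cell cannot be told apart.

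**Figure D1:**
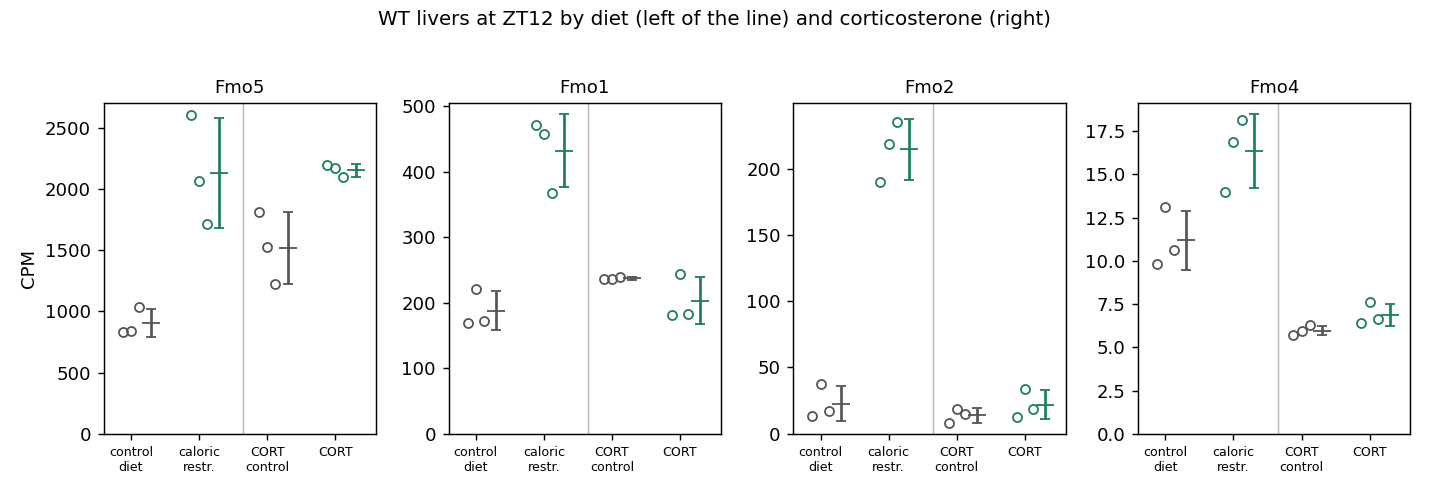
Levels of Fmo1, Fmo2, Fmo4 and Fmo5 in CPM (vertical axes) in WT livers at ZT12, by diet and by corticosterone (horizontal axes); open circles are libraries and bars are means ± SD (n = 3). The restricted libraries lie above their controls for each gene, while the corticosterone and control libraries overlap for Fmo1 and Fmo2.

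Genes that work beside the monooxygenases were counted in the same diet comparison. Of 10 genes of NADPH and electron supply 3 rose and 0 fell, among them Por, the reductase that serves cytochromes P450 (log2 fold change 1.16 ± 0.09), and Nnt (0.81 ± 0.20). Of 19 other phase I enzymes 9 rose and 6 fell, from the carbonyl reductase Cbr1 (1.95 ± 0.17) and Cyp3a11 (1.03 ± 0.21) to the aldehyde oxidase Aox3 (−2.03 ± 0.17) and Cyp1a2 (−1.78 ± 0.29). Of 5 tested genes of taurine synthesis and use 2 rose, Cdo1, which oxidises cysteine (0.98 ± 0.08), and the thiol dioxygenase Ado (0.38 ± 0.08). Of 10 regulators of drug-metabolising genes 3 rose and 2 fell, with the hepatocyte factor Hnf4a at 0.69 ± 0.16, the pregnane X receptor gene Nr1i2 at 0.42 ± 0.10, the bile acid receptor gene Nr1h4 at −0.49 ± 0.12 and Rxra, its partner, at −0.33 ± 0.07. The adjusted p-values of these named genes in the edgeR test lay between 0.000225 and 0.0133. Of 18 female-biased liver genes 12 were tested and 12 rose, and of 17 tested male-biased genes 17 fell. Several were near 0 counts in one group and no fold is given for them. Of 11 known GR targets 8 rose and 0 fell, led by the tyrosine aminotransferase Tat (2.96 ± 0.18).

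Markers of liver cell types moved in the same libraries. Of 6 endothelial markers 4 rose and 0 fell, with summed levels of 116, 149 and 153 CPM in controls and 194, 194 and 222 CPM on caloric restriction. Clec4g was the most abundant and none was at 0. Of 6 hepatocyte markers 2 rose (Cps1 and Alb), with summed levels of 86835, 87880.1 and 92391 CPM in controls and 155148, 156197 and 160051 CPM on caloric restriction. These sums are mostly Alb, whose log2 fold change was 0.99 ± 0.07. Of 7 stellate and fibroblast markers 2 rose and 2 fell, with summed levels of 238, 271 and 199.5 CPM in controls and 315, 269 and 310.4 CPM on caloric restriction, and of 8 Kupffer and myeloid markers 0 rose and 1 fell (Cd5l), with 174, 148 and 182 against 113, 177 and 162 CPM. Markers of rarer cells moved too. Of 4 tested cholangiocyte markers Sox9 (1.24 ± 0.25) and Krt19 (1.00 ± 0.22) rose, with summed levels of 49.0, 46.7 and 47.5 CPM in controls and 58.3, 38.2 and 38.6 CPM on caloric restriction, where Spp1 was the most abundant and Epcam was at 0. The 1 tested adipocyte marker, Cidec, fell by 1.73 ± 0.29, with summed levels of 5.94, 9.50 and 4.48 against 1.93, 1.69 and 2.24 CPM. Of 4 tested lymphocyte markers Cd79a fell by 3.78 ± 0.54, with sums of 6.84, 8.43 and 7.01 against 4.85, 6.20 and 5.68 CPM, Ptprc the most abundant and none at 0 in these 6 libraries. Of 5 erythrocyte markers Alas2 fell by 2.89 ± 0.18, with sums of 464, 1091 and 642 against 347, 207 and 589.6 CPM, Hbb-bs the most abundant and none at 0. The edgeR adjusted p of these 5 genes lay between 0.000129 and 0.00898. Their part in the levels of the monooxygenases was not tested.

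The corticosterone experiment asked which responses raised corticosterone gives without restriction. For Fmo5, the controls were at 1811, 1526 and 1221 CPM and the corticosterone libraries at 2196, 2169 and 2096 CPM, so that each treated library was above each control. For Fmo1 the controls were at 236, 236 and 240.1 CPM and the treated libraries at 181, 244 and 183 CPM, with 2 of them lower than the controls and 1 higher. Fmo2 was at 7.76, 19.0 and 14.9 CPM in controls and at 13.0, 34.1 and 18.6 CPM after corticosterone, and these groups overlapped. Fmo4 was at 5.72, 5.92 and 6.27 CPM in controls and at 6.41, 7.60 and 6.61 CPM after corticosterone, a small step without overlap.

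By edgeR 0 of the 4 genes were called after corticosterone, beside a background of 8.11% of genes tested. That share is 935 genes, a count that was 206 without control replicate 2, 421 without control replicate 1, 438 without control replicate 3, 446 without corticosterone replicate 1 and 395 without corticosterone replicate 3. Fmo5, 1 of the 4, had an unadjusted p under 0.05 (0.0111), and it was the 1 gene called by DESeq2. The log2 fold change of Fmo5 was 0.50 ± 0.15 (SE, edgeR adjusted p = 0.0843), and 0.51 by the DESeq2 Wald test (adjusted p = 0.0113). That of Fmo2 was 0.65 ± 0.42 (edgeR adjusted p = 0.376), of Fmo4 0.20 ± 0.15 (0.445) and of Fmo1 −0.23 ± 0.13 (0.321). Without corticosterone replicate 2 the Fmo1 value was −0.38 and was called (edgeR adjusted p = 0.0296). With each library left out, Fmo2 values ran from 0.18 (without corticosterone replicate 2) to 0.95 (without control replicate 2) and Fmo4 values from 0.12 to 0.25, with none called. In the same libraries 11 of 11 GR targets rose, with a median log2 fold change of 2.62, as did Por (1.38 ± 0.25, adjusted p = 0.0200) and Cyp3a13 (0.77 ± 0.14). Of 10 regulators 3 rose, among them Ahr, the dioxin receptor (1.79 ± 0.23), and Hnf4a (0.84 ± 0.16), while the forkhead gene Foxa2 fell by 1.215 ± 0.25, with edgeR adjusted p between 0.00754 and 0.0282 for these genes. Of 5 tested taurine genes edgeR called 0 (4 at an unadjusted p under 0.05 and 2 by DESeq2), of 6 female-biased genes 0 (1 and 1) and of 17 male-biased genes 0 (4 and 1).

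Of 39 tested cell type markers edgeR called 5 after corticosterone, with 15 at an unadjusted p under 0.05 and 10 called by DESeq2. Called were Fga (hepatocyte) and Cd5l (Kupffer), both higher, and Kdr (endothelial), Lrat (stellate) and Sox9 (cholangiocyte), each lower. Of 5 erythrocyte markers edgeR called 0, while 5 had an unadjusted p under 0.05 and DESeq2 called 4, with a median log2 fold change of −0.89. Their summed levels were 698, 632 and 788 CPM in controls and 326, 561 and 299.2 CPM after corticosterone, with each treated library below each control, Hbb-bs the most abundant and none at 0. Of 8 Kupffer and myeloid markers 1 was called and 3 had an unadjusted p under 0.05, with sums of 90.9, 113 and 128 against 127, 186 and 156 CPM. The 6 endothelial markers summed to 95.01, 102 and 120.4 CPM in controls and 77.0, 85.8 and 91.8 CPM after corticosterone. The part of these markers in the monooxygenase values was not tested.

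Loss of hepatocyte GR was compared with WT within each diet and time point. On caloric restriction at ZT12, Fmo5 was at 4537, 3626 and 4166 CPM in WT livers and at 937, 861 and 839.9 CPM in GR LKO livers. The lowest WT library was far above the highest GR LKO library. Fmo1 was at 436, 496 and 444 CPM in WT and at 336, 310.3 and 375 CPM in GR LKO. Fmo2 was at 283, 289 and 205 CPM in WT and at 215, 133 and 149 CPM in GR LKO. Fmo1 groups did not overlap, while WT replicate 3 of Fmo2 lay below GR LKO replicate 1. Fmo4 was at 18.3, 16.3 and 15.0 CPM in WT and at 22.0, 18.6 and 16.8 CPM in GR LKO, with overlap.

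Fmo5 fell by 2.22 ± 0.11 on the log2 scale (edgeR adjusted p = 0.000128), a 4.66-fold difference, and Fmo1 fell by 0.43 ± 0.10 (edgeR adjusted p = 0.0310). The value of Fmo2 was −0.64 ± 0.21 (edgeR adjusted p = 0.0793) and that of Fmo4 0.21 ± 0.13 (0.308). The 2 of 4 genes called, both lower, stand beside 15.3% of genes tested, with a median of −0.53 over the 4 genes. That share is 1795 genes, a count that was 899 without GR LKO replicate 3, 1193 without GR LKO replicate 1, 1137 without GR LKO replicate 2, 1099 without WT replicate 2 and 1032 without WT replicate 3. Fmo5 was called whichever of the 6 libraries was left out (−2.31 to −2.14), including WT replicate 3 with its pancreas transcripts. The Fmo1 call was lost without WT replicate 1 (adjusted p = 0.0544), 2 (0.0886) or 3 (0.0771) and without GR LKO replicate 1 (0.0930) or 2 (0.0859). Fmo2 was called without GR LKO replicate 1 (−0.87, adjusted p = 0.0345) and by DESeq2 (−0.64, adjusted p = 0.0101).

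Around them, Por fell by 0.97 ± 0.11 while the NADPH-forming malic enzyme Me1 (1.118 ± 0.20) and Cyb5b, a cytochrome b5 of the mitochondrial outer membrane (0.75 ± 0.13), rose, giving 2 higher and 1 lower of 10 genes of NADPH and electron supply. Of 19 other phase I enzymes 5 rose, among them Aldh1a1 (0.83 ± 0.12) and Ces1d (0.67 ± 0.11), and 1 fell, the ethanol-oxidising Cyp2e1 (−0.44 ± 0.08). Of 5 taurine genes the taurine transporter Slc6a6 rose (0.94 ± 0.16) and Cdo1 fell by 0.84 ± 0.08. Of 10 regulators 2 rose and 2 fell, among them Hnf4a (−0.51 ± 0.09), and of 11 GR targets 0 rose and 9 fell, with a median log2 fold change of −1.86. The edgeR adjusted p of the genes named here lay between 0.00105 and 0.0123. Of 13 tested female-biased genes 7 rose and 1 fell, and of 15 tested male-biased genes 1 rose and 5 fell. Of 8 Kupffer and myeloid markers 5 rose, with summed levels of 56.1, 93.9 and 68.2 CPM in WT and 157, 126 and 188 CPM in GR LKO. Clec4f was the most abundant and none was at 0. Of 6 hepatocyte markers 4 fell, with summed levels of 161790, 162727 and 167086 CPM in WT and 121096, 128752 and 110602 CPM in GR LKO. Alb was the most abundant and none was at 0. Of single markers in other lists, edgeR called Lyve1 (endothelial, 1.06 ± 0.12) and Alas2 (erythrocyte, 1.25 ± 0.18) higher and Sox9 (cholangiocyte, −1.64 ± 0.44) lower. Of the 6 endothelial markers 4 had an unadjusted p under 0.05 and DESeq2 called 3, with sums of 163, 149.6 and 179 CPM in WT and 211, 196 and 219 CPM in GR LKO. The part of these markers in the monooxygenase values was not tested.

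On the control diet at ZT12, Fmo5 was at 1385, 2009, 1124 and 1153 CPM in WT livers and at 498, 533, 719.6 and 611 CPM in GR LKO livers. Fmo2 was at 11.01, 9.62, 9.81 and 11.2 CPM in WT and at 15.5, 15.4, 16.1 and 20.1 CPM in GR LKO. The groups of both genes were apart, Fmo5 with WT and Fmo2 with GR LKO on the higher side. Fmo1 was at 195, 175, 178 and 223 CPM in WT and at 237, 203, 218 and 198 CPM in GR LKO. Fmo4 was at 8.86, 5.71, 5.60 and 11.1 CPM in WT and at 8.89, 8.30, 15.2 and 10.5 CPM in GR LKO. These groups overlapped.

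Fmo5 fell by 1.26 ± 0.20 (edgeR adjusted p = 0.0138) and Fmo2 rose by 0.69 ± 0.12 (edgeR adjusted p = 0.0180). Thus 1 gene was called higher and 1 lower, beside 2.08% of genes tested. That share is 238 genes, a count that was 137 without WT replicate 2, 141 without WT replicate 3 and 144 without GR LKO replicate 1. The values of Fmo1 (0.15) and Fmo4 (0.45) did not pass the test. With each library left out, Fmo1 ran from 0.098 to 0.226 and Fmo4 from 0.237 to 0.677, with none called. The Fmo5 call was lost without GR LKO replicate 1 (−1.19, adjusted p = 0.0503), and the Fmo2 call without WT replicate 2 (0.65, adjusted p = 0.0622) or WT replicate 3 (0.66, adjusted p = 0.0591) and in a fit over all control libraries (0.69, adjusted p = 0.506). Without GR LKO replicate 3, the library with the highest Cidec level, Fmo5 was −1.37 (adjusted p = 0.0213), Fmo2 0.71 (0.0380) and Fmo4 0.237 (0.792). Of 10 genes of NADPH and electron supply edgeR called 0 (4 at an unadjusted p under 0.05 and 2 by DESeq2), of 19 phase I enzymes 0 (4 and 2) and of 5 taurine genes 0 (1 and 0). Hnf4a fell by 0.48 ± 0.09 (edgeR adjusted p = 0.0370), and 5 of 11 GR targets fell, with a median of −1.06. Of 7 tested female-biased genes 4 rose and of 17 male-biased genes 5 fell. Of 6 hepatocyte markers 2 fell (Apoa1 and Cps1), with summed levels of 83025, 99055, 83309 and 92849 CPM in WT and 70392, 66941, 74189 and 86092 CPM in GR LKO. Of 2 tested adipocyte markers 1 rose (Cfd), with summed levels of 5.29, 2.66, 1.28 and 2.40 CPM in WT and 5.16, 7.04, 85.1 and 11.9 CPM in GR LKO. Cidec was the most abundant. Adipoq was at 0 in 6 of these 8 libraries, and Retn, Lep and Plin1 were at 0 in all 8. Their part in the result was not tested.

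**Figure D2:**
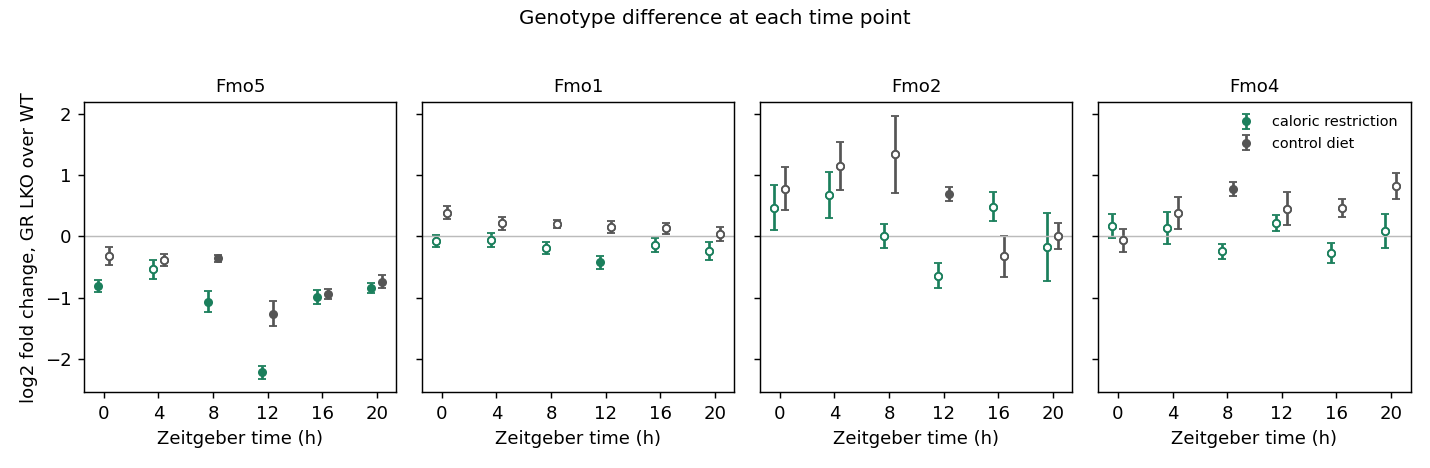
Log2 fold change ± SE of GR LKO over WT (vertical axis) for the 4 genes at each Zeitgeber time in hours (horizontal axis), on caloric restriction (green) and on the control diet (grey); filled symbols have an edgeR adjusted p under 0.05. Fmo5 lies below 0 at every time on both diets, lowest at ZT12 on caloric restriction (−2.22).

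Whether the genotype difference itself differed between diets was tested by the interaction term. At ZT12 the difference for Fmo2 was −1.32 ± 0.24 on the log2 scale (edgeR adjusted p = 0.0268), with the genotype values −0.64 on caloric restriction and 0.69 on the control diet behind it. This 1 gene of 4 stands beside 1.01% of genes tested, or 123 genes, a count that was 49 without GR LKO replicate 3 of caloric restriction. The call was lost without WT replicate 3 (adjusted p = 0.0607) or GR LKO replicate 4 (0.0512) of the control diet and without WT replicate 2 (0.0610) or GR LKO replicate 3 (0.0693) of caloric restriction. The term for Fmo5 was −0.95 ± 0.26 (edgeR adjusted p = 0.111; 0.0148 by DESeq2), and without WT replicate 2 of the control diet it was −1.16 and called (0.0203). For Fmo1 it was −0.56 ± 0.14 (edgeR adjusted p = 0.0896; 0.00754 by DESeq2), called without WT replicate 4 of the control diet (0.0419). At the other times edgeR called 0 of the 4 genes, beside backgrounds of 0% at ZT0, 0% at ZT4, 0.081% at ZT8, 0.234% at ZT16 and 0% at ZT20. At these 5 times 2, 0, 3, 1 and 0 of the 4 genes had an unadjusted p under 0.05 and DESeq2 called 1, 0, 3, 0 and 0. The nearest was Fmo4 at ZT8 (−1.01 ± 0.17, edgeR adjusted p = 0.0531), which passed without WT replicate 1 of caloric restriction (0.0340) or GR LKO replicate 2 of the control diet (0.0416).

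Cell type markers were read in the interaction too. At ZT12 edgeR called 0 of 39, with 10 at an unadjusted p under 0.05 and 6 called by DESeq2. The Kupffer and myeloid list held most of these, with 6 of 8 at an unadjusted p under 0.05, 4 called by DESeq2 and a median of 1.07 on the log2 scale. On caloric restriction their sums were 56.1, 93.9 and 68.2 CPM in WT and 157, 126 and 188 CPM in GR LKO livers, and on the control diet 101.3, 81.9, 69.7 and 103.9 CPM in WT and 70.6, 104.4, 79.8 and 105.3 CPM in GR LKO livers. The genotypes thus stood apart on caloric restriction and overlapped on the control diet, with Clec4f the most abundant and none at 0. At the other times edgeR called 0 of 43 markers at ZT0 (6 at an unadjusted p under 0.05 and 1 by DESeq2), 0 of 43 at ZT4 (5 and 0), 1 of 41 at ZT8 (the erythrocyte gene Alas2, 1.04 ± 0.16, adjusted p = 0.0315), 0 of 39 at ZT16 (3 and 1) and 0 of 41 at ZT20 (1 and 0). The part of these markers in the monooxygenase values was not tested.

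At the other times on caloric restriction, Fmo5 was lower in GR LKO libraries without overlap with WT. At ZT0 it was at 618, 732 and 749 CPM in WT and at 359, 412 and 422 CPM in GR LKO, and at ZT8 at 1179, 1550.3 and 988 against 647, 565 and 558 CPM. The ZT16 values were 2096, 2358 and 2494 against 1309, 1029.8 and 1142 CPM, and the ZT20 values 1412, 1407 and 1372 against 753, 750.2 and 814 CPM. The separation was thus present in each of these sets of 6 libraries. Fmo5 fell by 0.81 ± 0.10 at ZT0 (edgeR adjusted p = 0.0303), by 1.07 ± 0.17 at ZT8 (0.0257), by 1.00 ± 0.11 at ZT16 (0.00404) and by 0.84 ± 0.09 at ZT20 (0.0116). At ZT4 the libraries were at 901, 817 and 634 CPM in WT and 453, 542 and 625 CPM in GR LKO, a value of −0.54 ± 0.16 that edgeR did not call (adjusted p = 0.209) and that DESeq2 (0.0207) and an edgeR fit over all restricted libraries (0.0309) did. The count was 1 of 4 genes beside 0.502% of genes tested at ZT0, 0 of 4 beside 0.69% at ZT4 (1 with an unadjusted p under 0.05 and 1 called by DESeq2), 1 of 4 beside 2.55% at ZT8, 1 of 4 beside 4.54% at ZT16 and 1 of 4 beside 1.47% at ZT20. These backgrounds moved with single libraries: at ZT0 edgeR called 61 genes in all, 1 without WT replicate 3 and 103 without GR LKO replicate 1. The ZT0 call was lost without WT replicate 2 (0.103) or 3 (0.109) or GR LKO replicate 2 (0.130) or 3 (0.0948). GR LKO replicate 2 is the library with high erythrocyte markers, and without it the ZT0 value was −0.84. The ZT8 call was lost without WT replicate 1 (0.0524) or GR LKO replicate 1 (0.0891), 2 (0.116) or 3 (0.130), and the ZT20 call without WT replicate 1 (0.0732), 2 (0.0662) or 3 (0.0767). Without GR LKO replicate 1, the library with high stellate and lymphocyte markers, the ZT20 value was −0.83 (0.0223), and without WT replicate 2, highest in Kupffer markers, the ZT8 value was −0.87 (0.0189). At ZT16 each of the 6 refits kept it. Fmo1 values at these times ran from −0.24 to −0.06, Fmo2 values from −0.18 to 0.67 and Fmo4 values from −0.27 to 0.17, with none called. Groups without overlap were among them. Fmo2 at ZT4 was at 62.7, 61.2 and 20.5 CPM in WT and at 85.3, 74.9 and 70.8 CPM in GR LKO (0.67 ± 0.37, edgeR adjusted p = 0.465). With each library left out, this value ran from 0.314 to 0.909, with none called. At ZT8 the GR LKO libraries lay below the WT libraries by a narrow gap for Fmo1 (−0.19 ± 0.10, edgeR adjusted p = 0.362) and for Fmo4 (−0.24 ± 0.13, 0.373). With each library left out, the ZT8 values ran from −0.266 to −0.120 for Fmo1 and from −0.312 to −0.130 for Fmo4, with none called. Without WT replicate 2 they were −0.266 and −0.130.

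On the control diet Fmo5 was at 507, 509, 558 and 566 CPM in WT at ZT8 and at 414, 425, 404 and 422 CPM in GR LKO. The ZT16 values were 1816, 1626, 1494 and 1744 against 852, 848 and 911 CPM, and those of ZT20 were 1292, 1032, 1147 and 1021 against 719, 652 and 639 CPM. WT was higher in each, with the smallest step at ZT8. Fmo5 fell by 0.36 ± 0.05 at ZT8 (edgeR adjusted p = 0.0111), by 0.94 ± 0.08 at ZT16 (0.00281) and by 0.74 ± 0.11 at ZT20 (0.0470). The ZT20 call was lost whichever library was left out (0.0537 to 0.162), with a value of −0.80 (0.0537) without GR LKO replicate 1, the library high in cholangiocyte and stellate markers, and the ZT8 call in a fit over all control libraries (0.337). The ZT16 value was −0.96 (edgeR adjusted p = 0.0119) without WT replicate 2, the library with pancreas transcripts. Fmo4 at ZT8 was at 7.49, 9.08, 8.23 and 9.58 CPM in WT and at 16.5, 12.5, 15.0 and 14.5 CPM in GR LKO. Each GR LKO library was above each WT library, and Fmo4 rose by 0.77 ± 0.12 (edgeR adjusted p = 0.0131), a call lost without WT replicate 1 (0.0501) or 3 (0.0516) and in the fit over all control libraries (0.124). At ZT0 Fmo5 was at 783, 782 and 933 CPM in WT and 715, 745 and 552 CPM in GR LKO, and at ZT4 at 791, 626 and 644 against 513, 519 and 541 CPM. The log2 values of −0.32 ± 0.14 and −0.39 ± 0.10 were not called by edgeR (adjusted p = 0.348 and 0.272), though DESeq2 called Fmo5 at ZT4 (0.0208). With each library left out, the Fmo5 value at ZT0 ran from −0.404 to −0.199. It was −0.232 without WT replicate 3, a library high in lymphocyte markers. The counts were 0 of 4 genes beside 0.536% of genes tested at ZT0 and 0 of 4 beside 0.195% at ZT4 (1 and 2 with an unadjusted p under 0.05, and 1 called by DESeq2 at each of these times), 2 of 4 beside 1.43% at ZT8, 1 of 4 beside 1.98% at ZT16 and 1 of 4 beside 0.42% at ZT20. Here too the background moved with single libraries, from 63 genes called at ZT0 to 3 without WT replicate 2 or GR LKO replicate 3. Among values that did not pass the edgeR test was Fmo2 at ZT8 (1.34), spread by WT libraries at 1.09, 12.7, 8.07 and 1.14 CPM. Fmo1 at ZT0 was at 176, 164 and 147 CPM in WT and at 226, 216 and 198 CPM in GR LKO, without overlap. Its value of 0.39 ± 0.10 (edgeR adjusted p = 0.154) was called by DESeq2 (0.0281) and in the fit over all control libraries (0.0278). Fmo4 at ZT20 was at 4.02, 5.39, 7.56 and 4.88 CPM in WT and at 10.2, 8.46 and 10.1 CPM in GR LKO, also without overlap, and its value of 0.82 ± 0.22 (edgeR adjusted p = 0.203) was called in the fit over all control libraries (0.0476). The groups were apart as well for Fmo2 at ZT4, at 5.07, 1.997 and 5.77 CPM in WT and 6.63, 10.3 and 11.7 CPM in GR LKO (1.15 ± 0.39, edgeR unadjusted p = 0.0213, adjusted p = 0.416). For Fmo4 at ZT16 the WT libraries were at 5.33, 5.12, 5.18 and 5.71 CPM and the GR LKO libraries at 8.75, 6.16 and 7.11 CPM (0.46 ± 0.15, edgeR unadjusted p = 0.0166, adjusted p = 0.183). Neither DESeq2 nor the fit over all control libraries called these 2 values.

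Cell type markers were read at these other times as well. On caloric restriction edgeR called 0 of 43 tested markers at ZT0 (9 at an unadjusted p under 0.05 and 6 by DESeq2), 1 of 39 at ZT4, 3 of 38 at ZT8, 3 of 38 at ZT16 and 2 of 40 at ZT20. Endothelial markers had 0 of 6 called at ZT4 and ZT8, with 4 at an unadjusted p under 0.05 at each time and 3 and 2 called by DESeq2. Their sums were 161, 153 and 176 CPM in WT and 232, 238 and 205 CPM in GR LKO at ZT4, and 153, 165 and 157 against 190.4, 196 and 205 CPM at ZT8, with Clec4g the most abundant and none at 0. The GR LKO libraries were the higher at both times, and those of replicates 1 and 2 at ZT4 were the highest of the 90 libraries. The hepatocyte marker Apoa1 fell by 0.57 ± 0.11 at ZT8, and fell by 1.177 ± 0.20 at ZT16. The 6 hepatocyte markers summed to 136487, 117371 and 111353 CPM in WT and 108884, 104985 and 105467 CPM in GR LKO at ZT8, and to 134682, 142324 and 135177 against 124301, 100011 and 126334 CPM at ZT16. GR LKO libraries were the lower at both times. Cidec, the 1 adipocyte marker tested at ZT4, ZT8, ZT16 and ZT20, rose at each of them (2.58 ± 0.30, 3.13 ± 0.49, 3.23 ± 0.31 and 3.29 ± 0.54). The summed adipocyte level was between 0.173 and 1.86 CPM in WT libraries of these 4 times and between 1.175 and 13.8 CPM in GR LKO libraries, with Cidec the most abundant and Plin1 at 0. The erythrocyte gene Alas2 rose at ZT8 (1.47 ± 0.11) and ZT16 (1.61 ± 0.25), with sums over 5 genes of 472, 708 and 292 CPM in WT against 472, 397 and 424 CPM in GR LKO at ZT8 and of 790.5, 347 and 341 against 468, 458 and 422 CPM at ZT16. At ZT20 the fibroblast gene Col3a1 rose (1.34 ± 0.21), with 7 stellate and fibroblast markers at 326, 295 and 333 CPM in WT and 523, 313 and 300.6 CPM in GR LKO, Dcn the most abundant. On the control diet 2 of 40 markers were called at ZT0, 1 of 39 at ZT4, 2 of 38 at ZT8, 1 of 39 at ZT16 and 1 of 40 at ZT20, all higher in GR LKO. These were the adipocyte gene Cfd at ZT0, ZT4 and ZT8, Cidec at ZT8 (2.82 ± 0.40) and ZT20 (3.17 ± 0.43), and Alas2 at ZT0 (0.78 ± 0.08) and ZT16 (0.57 ± 0.11). No fold is given for Cfd, which was at 0 in 49 of 90 libraries. Adipocyte markers summed to 3.73, 0.688 and 8.67 CPM in WT and 63.9, 42.1 and 29.8 CPM in GR LKO at ZT0, to 0.908, 0.765 and 0.612 against 39.4, 27.6 and 9.50 CPM at ZT4, to 1.68, 1.21, 0.487 and 4.90 against 30.7, 18.2, 58.8 and 34.1 CPM at ZT8 and to 0.649, 2.59, 2.35 and 0.743 against 19.8, 58.3 and 13.7 CPM at ZT20. Of 6 hepatocyte markers edgeR called 0 at ZT4, ZT8, ZT16 and ZT20, while 3, 3, 4 and 3 had an unadjusted p under 0.05 and DESeq2 called 2, 3, 2 and 1. They summed to between 77113 and 100637 CPM in WT libraries of these 4 times and to between 71465 and 99287 CPM in GR LKO libraries. Erythrocyte markers summed to 454, 619.6 and 441 CPM in WT against 859, 429.9 and 829 CPM in GR LKO at ZT0 and to 725, 1546, 677 and 429 against 686, 498 and 575 CPM at ZT16. The edgeR adjusted p of the markers named here lay between 0.00174 and 0.0483. The part of these markers in the monooxygenase values was not tested.

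Over the day, mean Fmo5 on caloric restriction went from 699 CPM at ZT0 to 4109.7 CPM at ZT12 in WT livers, a ratio of 5.88, and from 398 CPM at ZT0 to 1160.3 CPM at ZT16 in GR LKO livers, a ratio of 2.92. On the control diet it went from 535 CPM at ZT8 to 1670.0 CPM at ZT16 in WT, a ratio of 3.12, and from 416 CPM at ZT8 to 870.0 CPM at ZT16 in GR LKO, a ratio of 2.09. The high point of the means thus stood at ZT12 in restricted WT livers and at ZT16 in the other 3 series. Mean Fmo2 went from 27.2 CPM at ZT0 to 259 CPM at ZT12 in restricted WT livers and from 34.5 CPM at ZT20 to 166 CPM at ZT12 in restricted GR LKO livers. It went from 4.28 CPM at ZT4 to 23.2 CPM at ZT16 in control WT and from 9.55 CPM at ZT4 to 18.5 CPM at ZT16 in control GR LKO livers. Mean Fmo1 moved within a ratio of 1.505 (control GR LKO) to 1.73 (restricted WT), highest at ZT12 in restricted WT livers and at ZT16 in the rest. Mean Fmo4 had its high point earlier, at ZT8 in restricted WT (29.0 CPM) and control GR LKO (14.6 CPM), at ZT4 in restricted GR LKO (24.8 CPM) and at ZT0 in control WT livers (8.82 CPM).

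**Figure D3:**
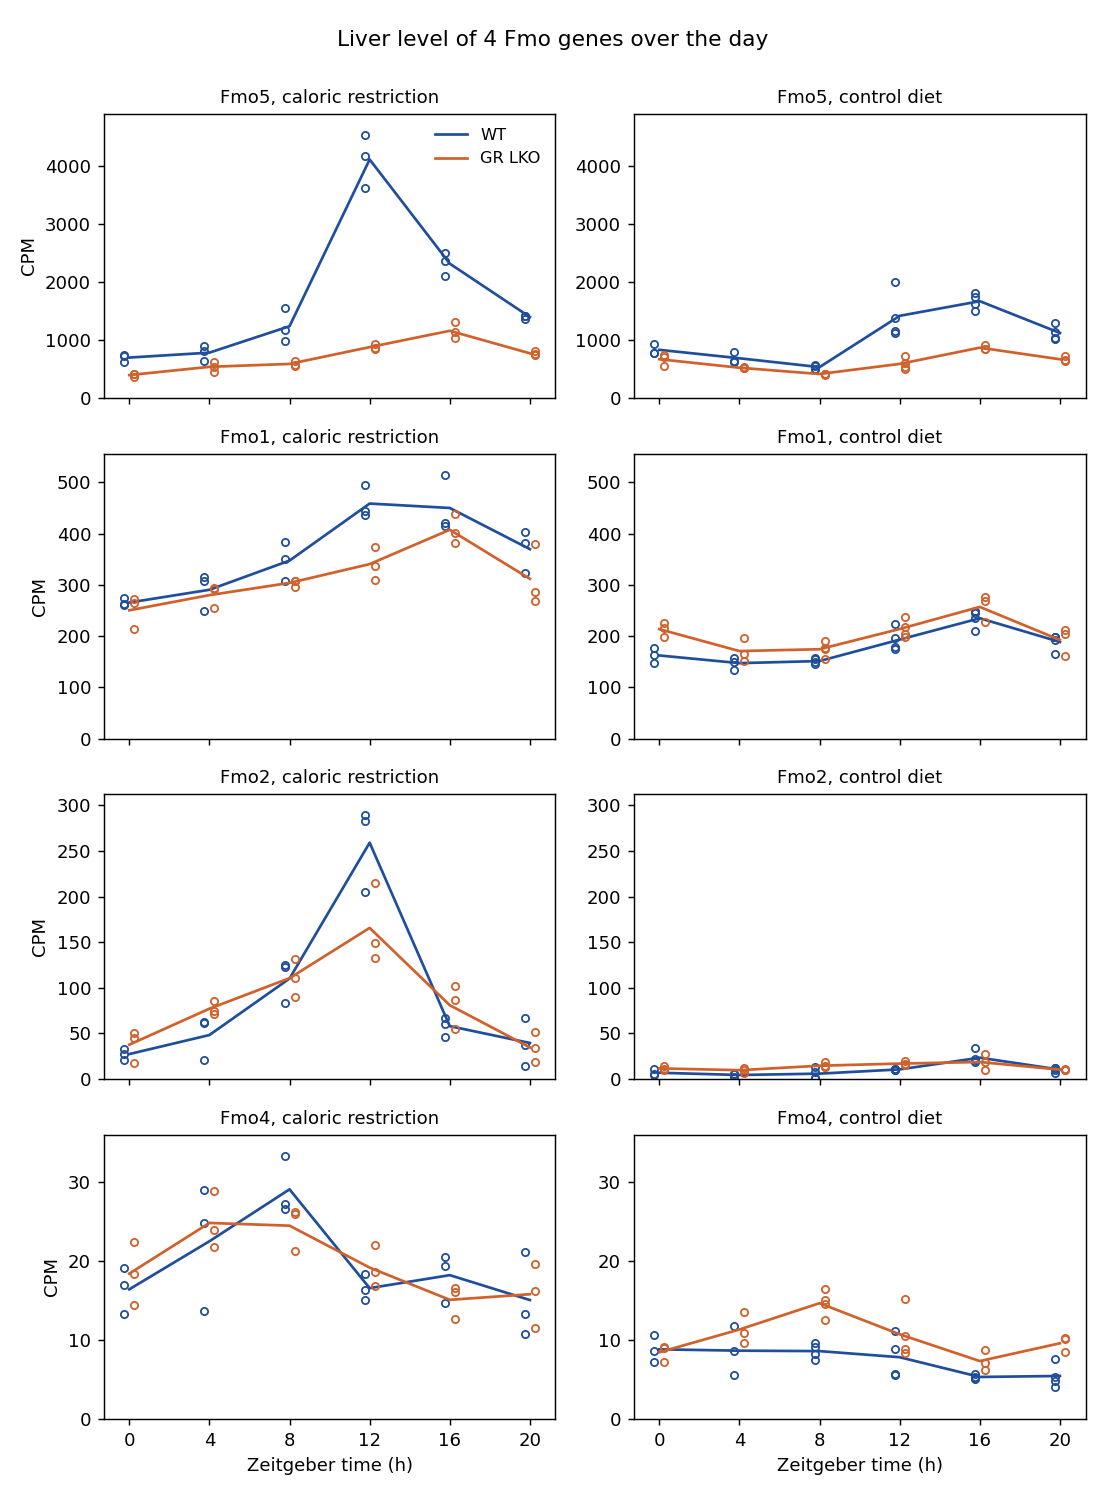
Levels of the 4 genes in CPM (vertical axes) against Zeitgeber time in hours (horizontal axes) on each diet; open circles are libraries and lines join group means, blue for WT and orange for GR LKO. Fmo5 in restricted WT livers peaks at ZT12, where the GR LKO libraries stay between 839.9 and 937 CPM.

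JTK_CYCLE at a period of 24 h, with its exact null distribution and Benjamini-Hochberg adjustment over genes, called 3 of 4 genes rhythmic in restricted WT livers (background 37.1%), 4 of 4 in restricted GR LKO (31.6%), 3 of 4 in control WT (44.6%) and 2 of 4 in control GR LKO livers (38.6%). For Fmo5 the adjusted p was 0.00109 with a peak at ZT12 in restricted WT, 0.00302 with a peak at ZT16 in restricted GR LKO, 0.000618 at ZT16 in control WT and 0.00462 at ZT20 in control GR LKO. Fmo1 was called in each of the 4 series and Fmo2 in 3 of them (0.0723 in control GR LKO). Fmo4 was called in restricted GR LKO livers (0.0411, peak at ZT4), and its other adjusted p-values were 0.168, 0.105 and 0.0595. An edgeR cosine and sine fit called Fmo4 in those 3 series (adjusted p = 0.0218 in restricted WT, 0.00924 in control WT and 0.00518 in control GR LKO) and Fmo2 in control GR LKO livers (0.00911). With one replicate number left out of each time point, calls in control WT were kept (adjusted p at most 0.0472). In the other series each call was lost for at least 1 replicate number. The adjusted p was 0.0703 for Fmo5 in restricted WT without replicate 2, and up to 0.0992 for Fmo5 in restricted GR LKO (without replicate 1; 0.0774 without replicate 2) and 0.0660 in control GR LKO (without replicate 1; 0.0558 without replicate 2). Fmo1 and Fmo2 in restricted WT livers lost their calls whichever number was left out (0.0508 to 0.0951), as did Fmo1 and Fmo4 in restricted GR LKO livers (0.0945 to 0.312). Fmo2 in restricted GR LKO livers lost it without replicate 2 (0.0581), and Fmo1 in control GR LKO livers without replicate 2 or 3 (up to 0.264). A test of the rhythm difference between genotypes (edgeR, genotype by cosine and sine) called Fmo5 on caloric restriction (adjusted p = 0.0354), 1 of 4 genes beside 0.997% of genes tested, and was lost without replicate 1 (0.194), 2 (0.558) or 3 (0.376). On the control diet edgeR called 0 of 4 beside 0.374% (Fmo5 adjusted p = 0.140; 2 of 4 had an unadjusted p under 0.05 and no other tool was run).

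The genes most like each monooxygenase were sought among 11148 genes over the 78 time-series libraries, with log2 CPM centred within each diet. The points share time points, genotypes and library sets, and the values are a description. For Fmo5 these were Asl, the urea cycle enzyme argininosuccinate lyase (Pearson r = 0.914, Spearman rho = 0.877), the DNA polymerase epsilon subunit gene Pole4 (0.879 and 0.867) and Dst, a cytoskeletal linker (0.875 and 0.835). For Fmo1 they were Nus1, of dolichol synthesis (0.780 and 0.742), Slc25a5, a mitochondrial ADP/ATP carrier (0.762 and 0.762), and the lipogenic protein gene Thrsp (0.762 and 0.779). Likeness was weaker for Fmo4, with the peroxisomal fatty acyl transporter gene Abcd2 (0.749 and 0.713), Tnfrsf19 and the CTP synthase gene Ctps2 (0.689 and 0.684), and for Fmo2, with Tmem185a (0.675 and 0.680), Ivns1abp and the microtubule-binding protein gene Mapre2 (0.668 and 0.714). For Fmo2 the r to Tmem185a was 0.853 within caloric restriction and 0.416 within the control diet, and to Asl Fmo5 had 0.922 and 0.907. In the same order, Fmo1 with Nus1 had 0.914 and 0.584, and Fmo4 with Abcd2 had 0.588 and 0.830. Without the 2 libraries farthest from the median, r was 0.895 for Fmo5 with Asl, 0.750 for Fmo1 with Nus1, 0.712 for Fmo4 with Abcd2 and 0.722 for Fmo2 with Tmem185a. Among the monooxygenases themselves, Fmo1 went with Fmo5 (r = 0.658; 0.846 on caloric restriction, 0.390 on the control diet) and with Fmo2 (r = 0.590), while Fmo4 and Fmo5 ran in opposite directions on the control diet (r = −0.729; −0.187 on caloric restriction).

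Promoter sequences are shown because Fmo2 and Fmo5 carried the largest differences by diet and by genotype among the 4 genes. RefSeq promoters of GRCm38.p6 (250 bases before to 50 after a start) were matched for 3 of the 4 genes, with 4 entries. Fmo1 had no entry. They were searched on both strands for the glucocorticoid receptor half-site AGAACA or TGTTCT, found in 19% of 32851 promoters, the FoxO motif TGTTTAC or GTAAACA, found in 3.65%, and the E-box CACGTG, found in 7.15%. The first Fmo2 entry, chr1:162898444-162898743 on the minus strand, held AGAACA from base 126 and GTAAACA from base 223, in capitals in the sequence, and the Fmo5 entry, chr3:97628769-97629068 on the plus strand, held none of the 3 motifs. Both are written 5′ to 3′.
Fmo2 promoter: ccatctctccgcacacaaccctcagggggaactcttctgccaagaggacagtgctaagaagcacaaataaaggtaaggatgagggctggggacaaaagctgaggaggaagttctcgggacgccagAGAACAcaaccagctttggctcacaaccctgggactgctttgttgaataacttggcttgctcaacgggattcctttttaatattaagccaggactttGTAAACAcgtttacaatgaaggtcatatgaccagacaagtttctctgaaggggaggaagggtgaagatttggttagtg
Fmo5 promoter: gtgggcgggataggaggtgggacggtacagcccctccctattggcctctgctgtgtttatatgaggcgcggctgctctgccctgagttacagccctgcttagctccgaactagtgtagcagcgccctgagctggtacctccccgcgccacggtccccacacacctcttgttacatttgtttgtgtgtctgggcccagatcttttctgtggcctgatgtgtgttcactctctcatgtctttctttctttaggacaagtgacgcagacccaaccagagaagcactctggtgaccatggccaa
The other Fmo2 entry (chr1:162898709-162899008) and the Fmo4 entry (chr1:162812500-162812799), both on the minus strand, held none of the 3 motifs. A match is a run of letters in this window and not a measured site. By the gene positions given above, Fmo2 begins at 162898726 on the minus strand. Both motifs of its first entry lie inside the annotated gene, and the entry that spans this end held none. Most of the Fmo5 window and all of the Fmo4 window also lie inside the annotated genes.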

How the data were processed

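Liver RNA (TruSeq v2 libraries) had been sequenced by the submitters, whose processing notes name FastQC, MultiQC, Salmon, DESeq2 and build mm10. The authors deposited 4 tables of estimated counts per gene made with Salmon, 90 columns in all; these were rounded for testing, and CPM were computed here from the estimated counts, with library totals adjusted by TMM factors over the libraries of each table. Gene symbols came from the annotation for 27244 of 27654 IDs. Groups followed the sample titles.

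Tests used edgeR 4.0.16 in R 4.3.3 (quasi-likelihood F test, TMM, filterByExpr at a minimum count of 10, Benjamini-Hochberg over all genes tested, called at an adjusted p under 0.05), in 14 comparisons of 2 groups, 6 interactions and 2 rhythm differences, each across all genes. The 4 genes passed the filter in each. Each SE of an edgeR log2 fold change was its absolute value divided by the square root of the F statistic. Rhythms were tested by JTK_CYCLE on variance-stabilised values (DESeq2 1.42.0), with Bonferroni adjustment over 6 phases. All tests were two-sided. The edgeR tests of 2 groups, interactions and rhythms, the DESeq2 Wald test and JTK_CYCLE were tested on simulated data with known changes. Alternatives were DESeq2 size factors, the DESeq2 Wald test, no count filter, a replicate block, each library left out, a fit over all libraries of a diet and WT time-series libraries at ZT12; for rhythms, log2 CPM (prior count 2) and an edgeR cosine and sine fit.

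Named genes were the 4 monooxygenases, other genes with an Fmo symbol and number, Nr3c1, the most changed called genes of each list and the 3 genes most like each monooxygenase; 1 gene this rule gives is not reported here. The genes and lists were chosen with earlier results of these data known. In 102 pairs of libraries within groups, counts differed beyond sampling noise (chi-square per degree of freedom at least 10.4), so none was counted as a repeated run of the same library. Separate libraries made from the same animal could not be found this way.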

Additional observations from a re-analysis of the deposited data

Results flagged for a closer look

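In 24 sets of 4 libraries (4 genes in 6 groups), 2 held a library far from the others: Fmo2 was at 20.1 CPM in GR LKO replicate 4 on the control diet at ZT12, with the others between 15.4 and 16.1 CPM, and Fmo1 was at 165 CPM in WT replicate 2 on the control diet at ZT20, with the others between 193 and 198 CPM. Chance alone gives about 1 in 20 such sets. The genotype difference of Fmo2 at ZT12 differed between diets by −1.32 on the log2 scale (edgeR adjusted p = 0.0268), and the daily rhythm of Fmo5 on caloric restriction differed between genotypes (edgeR adjusted p = 0.0354). Both calls were lost in fits with some libraries left out. The cause of these differences was not tested.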

How the results depend on the processing

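Of 1042 log2 fold changes of the 4 genes refitted in 2-group and interaction comparisons, 948 kept their direction and their side of the threshold, 49 lost the call, 21 gained it and 24 changed sign, each of the last with 1 library left out and none of them called. Most of the 948 were not called in the main fit, and only called values could lose a call. The 948 are thus not the share of calls that held. DESeq2 size factors changed no call, and the filter changed 1, the Fmo4 interaction at ZT8 (adjusted p = 0.0480). The DESeq2 Wald test added 11 calls, among them Fmo5 after corticosterone (0.51) and Fmo2 in GR LKO on caloric restriction at ZT12 (−0.64), and called 566 genes in GR LKO on the control diet at ZT12 against 238. In the fit over all libraries of a diet Fmo2 on the control diet at ZT12 was 0.69 without a call, Fmo4 and Fmo5 at ZT8 were not called either, and calls were gained by Fmo5 on caloric restriction at ZT4 (−0.54, adjusted p = 0.0309) and, on the control diet, by Fmo1 at ZT0 (0.40, 0.0278) and Fmo4 at ZT20 (0.82, 0.0476); 2805 genes were called on caloric restriction (against 1795) and 537 on the control diet. In WT time-series libraries at ZT12 the diet call of each of the 4 genes held, with values of 1.24 (Fmo1), 4.62 (Fmo2), 1.07 (Fmo4) and 1.52 (Fmo5). The cause of these changes was not tested.

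Replicate numbers did not pair the libraries: over 44 pairs the correlation of deviations ran from −0.122 to 0.115, and 10 of the libraries correlated best with their own number. With the replicate block at ZT12, 526 genes were called after corticosterone (against 935), 849 in GR LKO on caloric restriction and 95 on the control diet, and Fmo1 on caloric restriction (−0.43), Fmo2 (0.68) and Fmo5 (−1.24) on the control diet were not called. The block also ended the calls of the Fmo2 interaction at ZT12 (−1.33, adjusted p = 0.0737), Fmo5 on caloric restriction at ZT0 (0.0709) and ZT8 (0.0712), Fmo4 (0.116) and Fmo5 (0.0943) on the control diet at ZT8, Fmo5 there at ZT16 (0.0647) and ZT20 (0.356), and the Fmo5 rhythm difference on caloric restriction (0.0536).

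With each library left out, ZT12 values ran from 0.46 to 0.68 for Fmo4 by diet, −0.38 to −0.15 for Fmo1 and 0.18 to 0.95 for Fmo2 after corticosterone, −0.50 to −0.36 for Fmo1 and −0.87 to −0.50 for Fmo2 in GR LKO on caloric restriction, and 0.59 to 0.73 for Fmo2 and −1.37 to −1.04 for Fmo5 on the control diet. Genes called ran from 206 to 1008 after corticosterone (lowest without control replicate 2), from 899 to 1329 on caloric restriction (lowest without GR LKO replicate 3) and from 137 to 199 on the control diet (lowest without WT replicate 2). Sign changes were in ranges of −0.14 to 0.023 (Fmo1, ZT0), −0.15 to 0.0028 (Fmo1, ZT4), −0.12 to 0.36 (Fmo4, ZT4), −0.16 to 0.15 (Fmo2, ZT8), −0.58 to 0.44 (Fmo2, ZT20) and −0.11 to 0.40 (Fmo4, ZT20) on caloric restriction, −0.19 to 0.082 (Fmo4, ZT0), −0.040 to 0.15 (Fmo1, ZT20) and −0.15 to 0.11 (Fmo2, ZT20) on the control diet, and −0.85 to 0.014 (Fmo2, ZT0), −0.15 to 0.025 (Fmo5, ZT16) and −0.61 to 0.42 (Fmo2, ZT20) for the interaction.

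Counts of called genes at other times also moved. By edgeR, DESeq2, block and the fit over the diet they were 61, 433, 6 and 169 at ZT0, 83, 443, 12 and 358 at ZT4, 308, 698, 132 and 724 at ZT8, 541, 917, 255 and 1025 at ZT16 and 178, 687, 65 and 1127 at ZT20 on caloric restriction, and 63, 411, 6 and 630 at ZT0, 23, 194, 1 and 48 at ZT4, 166, 371, 30 and 36 at ZT8, 232, 632, 34 and 469 at ZT16 and 50, 296, 3 and 387 at ZT20 on the control diet. For the interaction edgeR and DESeq2 gave 0 and 176 at ZT0, 0 and 37 at ZT4, 10 and 126 at ZT8, 123 and 479 at ZT12, 29 and 186 at ZT16 and 0 and 48 at ZT20. With each library left out, edgeR's counts ran from 1 to 103 at ZT0, 13 to 127 at ZT4, 56 to 315 at ZT8, 234 to 346 at ZT16 and 16 to 194 at ZT20 on caloric restriction, from 3 to 81, 1 to 13, 56 to 160, 84 to 183 and 12 to 48 on the control diet, and from 0 to 1 at ZT0, 0 to 17 at ZT4, 4 to 35 at ZT8, 49 to 148 at ZT12, 18 to 49 at ZT16 and 0 to 9 at ZT20 for the interaction. Depth limits Fmo2 and Fmo4 most: the lowest library held 15.5 and 49.5 estimated counts of them.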
